A study of Mus musculus with 15 samples.

Results

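Expression of 9 genes of the lung endothelium was followed in whole lung of mice with allergic airway inflammation and in mice also given ginsenoside Rg3. The 9 genes were taken by symbol from the deposited gene table (Cdh5, Kdr, Tek, Pecam1, Cldn5, Tie1, Egfl7, Car4 and Prx), each matched 1 row, and all 9 of the 14766 genes in the table passed the filter on low values. RNA sequencing libraries came from lungs of wild-type mice in 3 groups of 5 biological replicates, per the labels. Control mice received saline, OVA mice were induced with ovalbumin by intraperitoneal injection and aerosol, and OVA_Rg3 mice had that induction with 20 mg/kg of Rg3, a saponin of ginseng, by gavage. All 15 libraries are labelled as 1 batch, and the labels used here give neither strain nor age. Since both the OVA and OVA_Rg3 groups are set against the same controls, and OVA_Rg3 is also set against OVA, the 3 comparisons share libraries.

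Endothelial cells line every vessel of the lung and are held together by adherens and tight junctions, which set how much fluid and how many leukocytes pass into the tissue. They are kept alive and quiescent by receptor tyrosine kinases for vascular endothelial growth factor (VEGF) and for angiopoietins. The alveolar capillaries hold general capillary cells, which act as progenitors, and aerocytes, wide thin cells specialised for gas exchange that carry carbonic anhydrase 4.

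The deposited table names no unit. Its values were read as FPKM, reads per length of transcript and per library, and could not be told apart with certainty from TPM over a larger gene set. Both are per length, so levels of different genes can be set side by side. Mitochondrially encoded transcripts took 18.9% to 29.3% of the summed values in control libraries, 46.2% to 79.8% in OVA and 41.6% to 70.4% in OVA_Rg3. A transcript's FPKM is lowered when others take a larger share, and the median log2 difference over all 12137 genes tested was -0.73 for OVA against control and -0.43 for OVA_Rg3 against control. Each result is therefore given as deposited and after median-ratio scaling, which divides a library by the median of its ratios to the average library and left medians of -0.02 and -0.06. Low values implied 0.216 to 9.01 M reads per library, with 0.832 M in control 2 and 0.216 M in OVA_Rg3 1. At these depths the median member was carried by about 38.5 reads in control 2 and 14.1 in OVA_Rg3 1, against 121 to 900 in the other libraries. Surfactant and other alveolar type 2 transcripts were present in every library, with sums over 10 genes from 1396 to 12852 FPKM. Liver transcripts, 9 genes, summed to 405 FPKM in control 2, 200 in OVA 4 and 1591 in OVA_Rg3 1, each the highest of its group, and the skeletal muscle and adipose lists were highest in the same libraries. OVA 1 and OVA 2 stood above OVA 3 to OVA 5 for all 9 members as deposited, and OVA_Rg3 2 held the highest OVA_Rg3 value of 8 of the 9.

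Prx and Kdr, the members whose calls led the results below, lie on chromosomes 7 and 5. Their promoters, the 250 bases before the RefSeq start on GRCm38.p6, are shown because these genes moved apart within libraries. The Kdr window is chr5:75978456-75978705 on the minus strand and the Prx window is chr7:27499074-27499323 on the plus strand. Capitals mark GGGCGG, the GC box, and CACCC, the core read by Krüppel-like factors, each searched on both strands with overlaps counted.
Kdr promoter: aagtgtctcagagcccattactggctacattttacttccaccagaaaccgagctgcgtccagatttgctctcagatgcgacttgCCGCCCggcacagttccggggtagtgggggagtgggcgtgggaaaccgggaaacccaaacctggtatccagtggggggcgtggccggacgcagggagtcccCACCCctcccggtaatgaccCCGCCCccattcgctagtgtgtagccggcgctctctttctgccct
Prx promoter: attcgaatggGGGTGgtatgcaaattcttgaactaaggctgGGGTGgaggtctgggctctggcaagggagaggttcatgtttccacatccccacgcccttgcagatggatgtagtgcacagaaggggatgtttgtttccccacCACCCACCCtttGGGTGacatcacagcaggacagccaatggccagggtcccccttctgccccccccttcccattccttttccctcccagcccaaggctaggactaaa
The Kdr window held 2 GC boxes and 1 CACCC, and the Prx window held 0 GC boxes and 5 CACCC. Among 32851 promoter windows of that length, 32.7% held at least 1 GC box and 52% at least 1 CACCC. The motif CAGGAA, a form of the ETS site bound by endothelial factors such as ERG, was found in 25.7% of windows and its letters are in neither of these windows. Of the 9 members, 7 had a promoter in the RefSeq table. CACCC was found 1 time in the Tek and Car4 windows and 2 times in those of Cldn5 and Tie1. The 3 Egfl7 windows held 0, 2 and 0. How often other windows hold as many copies as these was not counted, and the part of the motifs in the levels of Kdr and Prx was not tested.

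The receptors came first in the order of roles. Kdr (chr5:75932827-75978458, minus strand of GRCm38, the build used for all genes below) encodes VEGFR2, the main signalling receptor for VEGF-A. Kdr stood at 13.7, 9.74, 11.4, 14.8 and 16.6 FPKM in control libraries 1 to 5. Values of 6.95, 8.82, 5.5, 5.27 and 5.10 FPKM were found in OVA 1 to 5. They were 4.60, 23.1, 11.9, 13.1 and 9.21 FPKM in OVA_Rg3 1 to 5. Every OVA library lay below every control, whereas the OVA_Rg3 libraries spread across and beyond both groups. As deposited, Kdr fell by 0.96 on the log2 scale in OVA against control (SE 0.31, limma, adjusted p = 0.0189), and the call held when each library was left out in turn (highest adjusted p = 0.0473). That fall is close to the median of all genes, and 31.2% of genes tested had a lower difference. After scaling the difference was -0.09 ± 0.25 (SE, limma adjusted p = 0.869), with the scaled ranges of OVA and control overlapping. The OVA_Rg3 libraries differed from control by -0.22 as deposited and by 0.22 after scaling, and neither passed (limma adjusted p = 0.622 and 0.643).

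Tek encodes TIE2, the receptor of the angiopoietins (chr4:94739289-94874976, plus strand). Its control values were 11.1, 3.54, 7.13, 11.3 and 18.4 FPKM. The OVA libraries gave 24.2, 19.9, 4.58, 3.71 and 5.95 FPKM, and the OVA_Rg3 libraries gave 13.0, 49.3, 17.8, 13.5 and 10.7 FPKM. OVA was split, with libraries 1 and 2 above all controls and the other 3 within the control range. Tie1, the partner receptor that modulates TIE2 (chr4:118471191-118490061, minus strand), was split between the same libraries, with OVA 3 to 5 below all controls as deposited. It stood at 12.2, 5.47, 7.03, 12.2 and 12.7 FPKM in controls, at 25.9, 20.5, 3.93, 4.64 and 4.14 FPKM in OVA, and at 7.82, 35, 16.9, 13.1 and 8.49 FPKM in OVA_Rg3. After scaling Tie1 in OVA 3 to 5 (6.85 to 8.32) lay within the control range (4.74 to 8.44). For both receptors the differences of OVA from control were near 0 as deposited, at -0.03 ± 0.52 for Tek and -0.12 ± 0.50 for Tie1 (SE), and turned to 0.82 ± 0.38 and 0.73 ± 0.35 after scaling, with no call on either scale. Tek rose in OVA_Rg3 against control after scaling, by 1.31 ± 0.38 (SE, limma adjusted p = 0.0465), with all 5 scaled OVA_Rg3 values (12.9 to 37.3) above all 5 controls (3.07 to 12.3). As deposited that Tek difference was 0.88 ± 0.52 and was not called (limma adjusted p = 0.225). Leaving out any of controls 1 to 4 or OVA_Rg3 2, 3 or 5 ended the scaled Tek call (limma adjusted p from 0.0661 to 0.117). Tie1 in OVA_Rg3 differed from control by 0.52 ± 0.50 as deposited and 0.95 ± 0.35 after scaling, neither called (SE, limma adjusted p = 0.454 and 0.105).

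**Figure D1:**
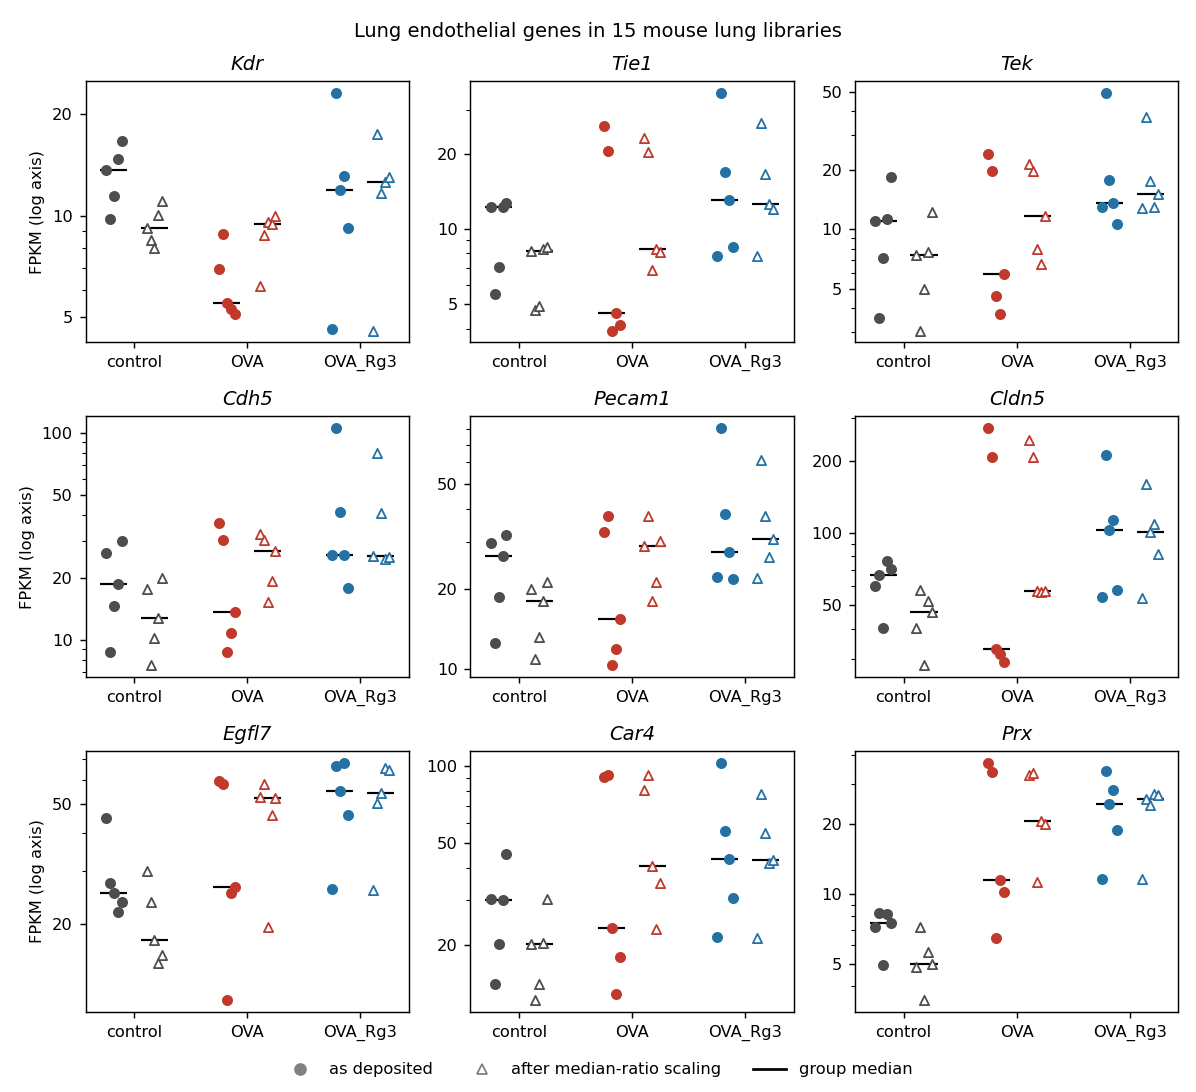
FPKM of the 9 genes (log axis, 1 panel per gene) in control, OVA and OVA_Rg3 libraries, 5 points per group in the order of library number, as filled circles for deposited values and open triangles after median-ratio scaling, with bars at group medians. As deposited all OVA values of Kdr (5.10 to 8.82) lie below all controls (9.74 to 16.6), and after scaling the groups overlap. All OVA_Rg3 values of Prx lie above all controls on both scales.

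The junction genes form the seal between the cells. Cdh5 encodes VE-cadherin, the adhesive core of endothelial adherens junctions (chr8:104101625-104144511, plus strand). Its values were 26.3, 8.69, 14.6, 18.7 and 29.9 FPKM in controls and 36.7, 30.5, 8.78, 10.7 and 13.7 FPKM in OVA. In OVA_Rg3 they were 25.6, 106, 41.6, 25.8 and 17.8 FPKM. All 3 groups overlapped as deposited, and OVA_Rg3 2 stood far above the rest. After scaling, the OVA_Rg3 values (24.7 to 80.1) all lay above the controls (7.53 to 19.9). Cdh5 rose on that scale by 1.38 ± 0.34 in OVA_Rg3 against control (SE, limma adjusted p = 0.0258), against 0.92 ± 0.47 as deposited (limma adjusted p = 0.17). The scaled call was lost without control 2, 3 or 4 or OVA_Rg3 2 (limma adjusted p from 0.056 to 0.0757). The difference of OVA from control was -0.06 ± 0.47 as deposited and 0.85 ± 0.34 after scaling, a change of sign with no call (limma adjusted p = 0.913 and 0.105).

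Pecam1 encodes CD31, an adhesion molecule of endothelial contacts that platelets and leukocytes also carry (chr11:106654217-106750628, minus strand). Pecam1 stood at 29.7, 12.6, 18.8, 26.7 and 32 FPKM in controls and at 32.8, 37.9, 10.3, 11.9 and 15.5 FPKM in OVA. The OVA_Rg3 values were 22.2, 81.0, 38.3, 27.6 and 21.9 FPKM. No pair of groups separated as deposited, while after scaling all OVA_Rg3 libraries (22.1 to 61.3) lay above all controls (10.9 to 21.3). Pecam1 rose on the scaled values by 1.00 ± 0.27 in OVA_Rg3 against control (SE, limma adjusted p = 0.0387), and the deposited difference was 0.54 ± 0.41 (limma adjusted p = 0.341). That call too was lost in 7 of 10 left-out libraries (limma adjusted p up to 0.107, without control 3). Platelet transcripts, 7 genes, summed to 81.3 to 201 FPKM in controls, 60.3 to 185 in OVA and 49.9 to 376 in OVA_Rg3, and their part in the Pecam1 values was not tested. The difference of OVA from control was -0.25 ± 0.41 as deposited and 0.67 ± 0.27 after scaling (limma adjusted p = 0.608 and 0.113).

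Cldn5 encodes claudin-5, the main claudin of endothelial tight junctions (chr16:18776847-18778260, plus strand), and was the most abundant member in all 15 libraries. Its FPKM values were 60.1, 66.9, 40.2, 76.7 and 70.6 in controls and 274, 208, 32.9, 31.6 and 29.2 in OVA. In OVA_Rg3 they reached 54.2, 212, 103, 114 and 57.9. As deposited, the OVA group fell into 2 libraries far above the highest control and 3 libraries below all controls, a 9.36-fold spread within 1 group. After scaling OVA 3 to 5 (56.7 to 57.4) lay within the control range (28.2 to 57.9), and OVA 1 and 2 (243 and 206) stayed above it. Cldn5 differences were 0.20 ± 0.57 for OVA and 0.62 ± 0.57 for OVA_Rg3 against control as deposited, and 1.16 ± 0.42 and 1.10 ± 0.42 after scaling (SE), none called (limma adjusted p from 0.0798 to 0.769).

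Egfl7 encodes a secreted protein of the vessel wall (chr2:26580014-26593120, plus strand). The gene holds the hairpin of miR-126a, an endothelial microRNA, at chr2:26591357-26591429 on the same strand. Its mature 3p arm is shown with the seed, bases 2 to 8, in capitals, since reads of the host gene do not measure it and its level was not analysed here.
mmu-miR-126a-3p: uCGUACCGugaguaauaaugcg
Egfl7 stood at 44.7, 27.4, 25.3, 22.0 and 23.7 FPKM in controls and at 59.3, 58.2, 11.3, 25.5 and 26.6 FPKM in OVA. The OVA_Rg3 values were 26.1, 66.5, 55.1, 68.2 and 46.0 FPKM. As deposited OVA 3 was the lowest library and OVA_Rg3 1 lay among the controls, while the other 4 OVA_Rg3 libraries exceeded all controls. After scaling OVA 3 (19.6) lay within the control range (14.9 to 30.0). Differences from control were 0.14 ± 0.39 for OVA and 0.82 ± 0.39 for OVA_Rg3 as deposited, not called (limma adjusted p = 0.759 and 0.141). After scaling Egfl7 rose by 1.08 ± 0.31 in OVA (limma adjusted p = 0.0305) and by 1.29 ± 0.31 in OVA_Rg3 (limma adjusted p = 0.0253). Leaving out 7 of 10 libraries in turn ended the first call and 4 of 10 the second (highest limma adjusted p = 0.0804 and 0.0736). The annotation places a second protein-coding gene, Gm20532, over part of Egfl7 on the same strand, so reads of the overlap cannot be assigned with certainty. On the opposite strand it places Agpat2 over the end of Egfl7, Gm15541 within Prx and Gm29682 over part of Cdh5. Since it is not given whether counting used strand, reads of those overlaps are also uncertain.

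The last members mark the alveolar capillary. Car4 encodes carbonic anhydrase 4, an enzyme on the capillary surface that speeds the release of carbon dioxide (chr11:84957786-84966044, plus strand). Car4 stood at 30.1, 14.0, 20.1, 29.9 and 45.4 FPKM in controls and at 91.2, 92.6, 23.3, 12.9 and 17.9 FPKM in OVA. Its OVA_Rg3 values were 21.4, 103, 55.6, 43.5 and 30.6 FPKM. As deposited OVA 1 and 2 again exceeded all controls, while OVA 3 and 5 lay within their range and OVA 4 below it. After scaling OVA 3 and 5 (40.6 and 35.1) also exceeded all controls, and OVA 4 (23.1) lay within their range (12.1 to 30.3). Car4 rose in OVA against control after scaling, by 1.32 ± 0.39 (SE, limma adjusted p = 0.0334), where the deposited difference was 0.39 ± 0.53 (limma adjusted p = 0.533). The call was lost without any of controls 1 to 4 or OVA 1 or 2 (limma adjusted p from 0.0598 to 0.0836). It was also lost with quantile normalization and with scaling that left out mitochondrial genes and Scgb1a1 (limma adjusted p = 0.0503 and 0.0894). In OVA_Rg3 against control the Car4 differences were 0.74 ± 0.53 as deposited and 1.21 ± 0.39 after scaling (limma adjusted p = 0.315 and 0.0695).

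Prx encodes periaxin, a scaffold protein known from myelinating Schwann cells and found in lung in endothelium (chr7:27499324-27520214, plus strand). Prx stood at 7.17, 8.30, 4.95, 8.23 and 7.47 FPKM in controls and at 37.0, 33.6, 6.45, 11.5 and 10.3 FPKM in OVA. Values of 11.7, 34.0, 24.5, 28.2 and 19.0 FPKM were found in OVA_Rg3. All OVA_Rg3 libraries and 4 of 5 OVA libraries exceeded every control, and OVA 3 lay within the control range. Prx rose as deposited by 1.06 ± 0.41 in OVA (SE, limma adjusted p = 0.0383) and by 1.51 ± 0.41 in OVA_Rg3 (limma adjusted p = 0.0185), folds of 2.08 and 2.85 on the (FPKM + 1) scale. After scaling both differences were 1.92 ± 0.29, a fold of 3.79 (limma adjusted p = 0.0013 and 0.00357), and all OVA (11.2 to 33.4) and OVA_Rg3 values (11.6 to 27.1) lay above all controls (3.47 to 7.19). Leaving out control 1, 3, 4 or 5, or OVA 1 or 2, ended the deposited OVA call, with a limma adjusted p from 0.0558 to 0.0945, and leaving out control 3 ended the OVA_Rg3 call (limma adjusted p = 0.0546). The scaled Prx calls held in all 10 left-out libraries of each comparison (highest limma adjusted p = 0.00566 and 0.0171).

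Schwann cell markers were read beside Prx, and their part in its values was not tested. Of the 4 Schwann genes tested, 0 were called against control in either comparison as deposited. After scaling 1 rose in OVA and 0 in OVA_Rg3. The gene that rose was Egr2, a transcription factor of Schwann cells that immune cells also express, by 1.44 ± 0.36 (SE, limma adjusted p = 0.0146). Mbp, the gene of smallest p in OVA as deposited, went the other way and was not called. It differed by -1.30 ± 0.56 as deposited and -0.55 ± 0.59 after scaling (SE, limma adjusted p = 0.0607 and 0.597). The median difference of the list was -0.81 in OVA and 0.11 in OVA_Rg3 as deposited, and -0.05 and 0.56 after scaling. The list summed to 20.2 to 114 FPKM in controls, 11 to 104 in OVA and 33.8 to 225 in OVA_Rg3, where OVA_Rg3 1 was the highest. Pmp22, which many lung cells also express, ranged from 5.86 to 102 FPKM.

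Counted over the 9 members, OVA against control gave 1 gene that rose (Prx) and 1 that fell (Kdr) as deposited, while 0.577% of all genes tested rose and 51.2% fell. After scaling 3 members rose (Prx, Car4 and Egfl7) and 0 fell, against 6.32% and 8.39% of all genes. For OVA_Rg3 against control the count was 1 member that rose (Prx) and 0 that fell as deposited, against 0.774% and 15.8% of all genes. On scaled values 5 members rose (Prx, Egfl7, Cdh5, Pecam1 and Tek) and 0 fell, against 2.98% and 4.75%. Of the calls over all genes, 98.9% and 95.3% were lower than control as deposited in these comparisons, and 57% and 61.4% after scaling. The member counts after scaling fell to 1, Prx, without control 3 in both comparisons. The median member difference was -0.03 for OVA and 0.74 for OVA_Rg3 as deposited, beside -0.73 and -0.43 over all genes, and 0.85 and 1.21 after scaling. Erythroid genes, markers of red cells in the tissue's blood, moved with the OVA group. Of 6 tested, 4 rose in OVA as deposited and 6 after scaling, and 0 and 1 rose in OVA_Rg3. Their sum was 1695 to 4309 FPKM in controls, 4731 to 10110.2 in OVA and 2508 to 7569 in OVA_Rg3, and its part in the member values was not tested. In whole lung, fewer endothelial cells and less RNA per cell cannot be told apart, nor more cells and more RNA per cell.

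**Figure D2:**
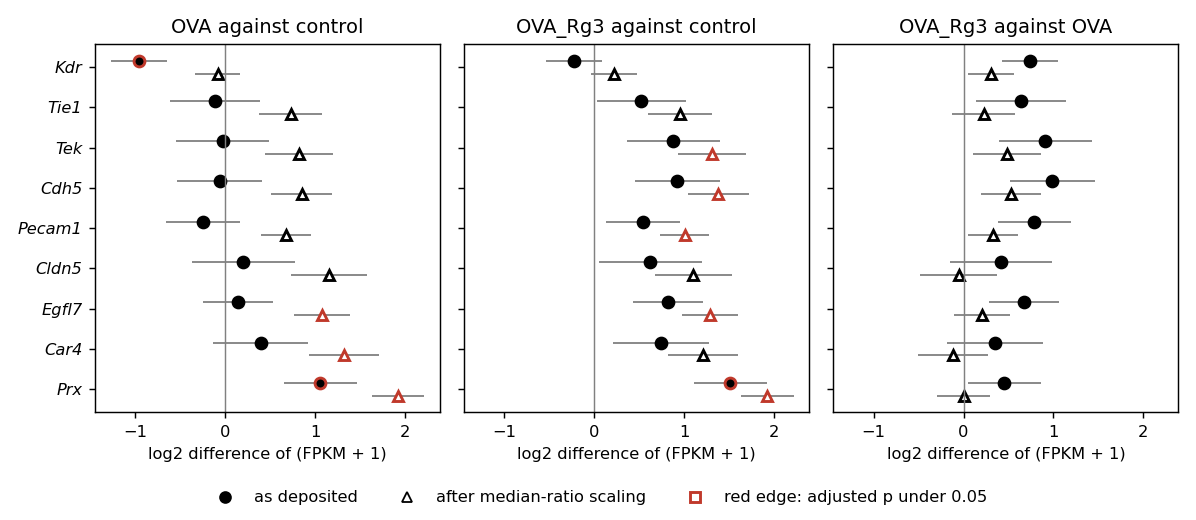
Log2 difference of (FPKM + 1) with its standard error for the 9 genes in 3 comparisons of 5 against 5 libraries, as filled circles for deposited values and open triangles after median-ratio scaling, with red edges where the limma adjusted p is under 0.05. Scaling moves every difference from control up, turns Cdh5, Pecam1, Tek and Tie1 from slightly negative to positive in OVA and Kdr from negative to positive in OVA_Rg3, and Prx is the one gene called against control on both scales.

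Rg3 treatment was compared directly with OVA alone. No member passed in OVA_Rg3 against OVA on either scale, and 0 of 12137 genes (0%) were called by limma, with 1756 at an unadjusted p under 0.05 as deposited and 1058 after scaling. The deposited differences of the members were all positive, from 0.35 ± 0.53 for Car4 to 0.99 ± 0.47 for Cdh5 (SE, limma adjusted p = 0.735 and 0.344), where the median gene differed by 0.32. As deposited Kdr had the smallest p of the members, with 0.74 ± 0.31 as deposited and 0.31 ± 0.25 after scaling (limma adjusted p = 0.321 and 0.742). On scaled values Car4 (-0.12 ± 0.39) and Cldn5 (-0.06 ± 0.42) changed sign, and Prx was 23.7 ± 9.43 FPKM in OVA and 23.1 ± 6.53 in OVA_Rg3 (SD, n = 5).

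Ratios between FPKM values of members of 1 library do not depend on how that library was scaled. The tests below used log2(FPKM + 1), where the added 1 leaves some dependence on scale, most at low values. Kdr exceeded Prx in all 5 controls, with Kdr to Prx ratios of 1.91, 1.17, 2.31, 1.79 and 2.22. The ratios were 0.188, 0.262, 0.853, 0.457 and 0.497 in OVA, and 0.395, 0.678, 0.484, 0.463 and 0.485 in OVA_Rg3. Prx therefore exceeded Kdr in all 10 libraries of OVA mice, treated or not, with no overlap with control. On log2(FPKM + 1) values the ratio differed from control by -2.02 in OVA and -1.73 in OVA_Rg3 (exact two-sided permutation p = 0.00794, the smallest that 5 against 5 allows, in both, and adjusted p = 0.114 over 108 tests of 36 pairs in 3 comparisons). This pair was singled out after the values were seen. Over all 36 pairs, 2 did not overlap between OVA and control and 5 between OVA_Rg3 and control, 12 and 13 had an exact permutation p under 0.05, and 0 passed after adjustment. Each of the 7 held either Kdr or Prx, and the pairs share members, so they are not independent of each other. How often pairs of other genes separate between these groups was not tested. These counts therefore cannot show whether the members are unusual. A pair at the smallest possible p could pass adjustment only if many other pairs reached it too. That none passed does not show that the ratios were unchanged.

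With Cdh5 as the denominator, the planned form of the test, 0 of 24 ratios passed. The Kdr to Cdh5 ratio differed from control by -0.90 in OVA and -1.15 in OVA_Rg3 (exact permutation p = 0.0317 and 0.0159, adjusted p = 0.19 for both). The Prx to Cdh5 ratio differed by 1.12 in OVA and 0.59 in OVA_Rg3 (exact permutation p = 0.0238 and 0.23, adjusted p = 0.19 and 0.425). Ratios to the mean of the other 8 members gave -1.13 and -1.04 for Kdr, and 1.14 and 0.91 for Prx (exact permutation p = 0.00794, 0.00794, 0.00794 and 0.0238, adjusted p over 27 tests = 0.0714 for the first 3 and 0.161 for the last). Tek, Tie1, Cldn5, Egfl7 and Car4 ratios to Cdh5 differed from control by at most 0.46 in size, with exact permutation p of 0.0873 or more, in either comparison. The Pecam1 to Cdh5 ratio differed by -0.38 in OVA_Rg3 (exact permutation p = 0.0317, adjusted p = 0.19) and by -0.18 in OVA (exact permutation p = 0.135).

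**Figure D3:**
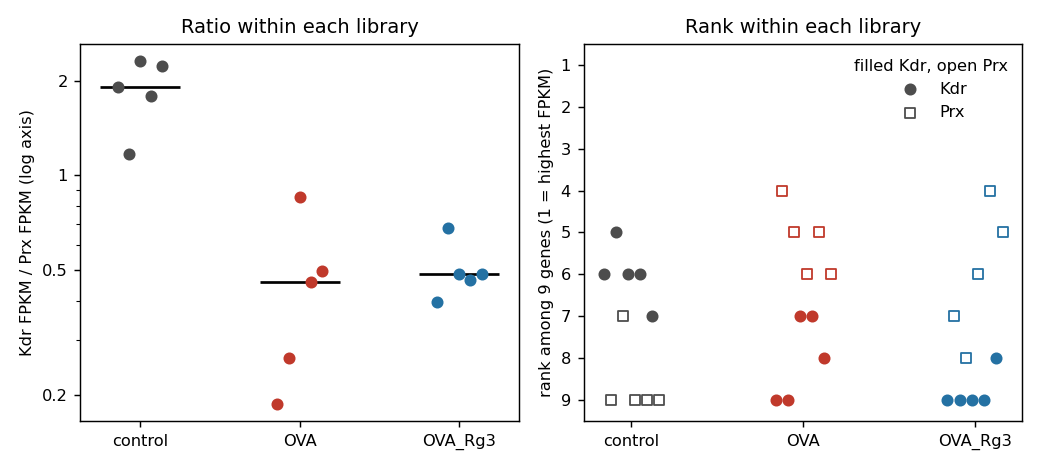
Left, Kdr FPKM divided by Prx FPKM in each library (log axis, 5 points per group, bars at medians). Right, rank of Kdr (filled circles) and Prx (open squares) among the 9 members in each library, where 1 is the highest FPKM. Control ratios lie between 1.17 and 2.31 and those of OVA and OVA_Rg3 between 0.188 and 0.853. Prx moves from rank 7 to 9 in controls to rank 4 to 8 in the other groups while Kdr moves from 5 to 7 down to 7 to 9.

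The other members kept similar median ranks in the 3 groups, with spread between libraries. Cldn5 ranked first in every library, and Egfl7 and Car4 took median ranks of 2 or 3 in all 3 groups, with Egfl7 at ranks 2 to 5 in control and OVA_Rg3 and Car4 at 2 to 5 in OVA_Rg3. Pecam1 and Cdh5 followed with median ranks between 4 and 5, though Cdh5 ranged from 2 to 6 in OVA_Rg3, and Tek and Tie1 stood at median ranks of 7 to 8. Control means ran from 62.9 ± 14.1 FPKM for Cldn5 to 7.22 ± 1.36 FPKM for Prx (SD, n = 5). Neighbours such as Egfl7 (28.6 ± 9.19), Car4 (27.9 ± 11.9) and Pecam1 (24 ± 8.10) differed by less than their SD.

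Across the 15 libraries, with group means removed from scaled log2 values, the 36 member pairs had Pearson correlations from 0.16 to 0.95 with a median of 0.55. Cdh5 and Pecam1 had the highest value. Kdr was least like the rest, with a mean correlation of 0.35 with the other 8, followed by Egfl7 at 0.40, and Tie1 had the highest mean at 0.72. The tested genes most like the mean of the 9 members were Adgrl4 (0.97), Kcne2 (0.96), Ece1 (0.96), Ramp2 (0.95), Ptgfrn, Adcy4, Npnt and Plxna1 (each 0.94), and Trim25 and Dock4 (each 0.93). Ece1 makes endothelin-1 from its precursor, Ramp2 is a coreceptor for adrenomedullin and Adgrl4 is an adhesion receptor of endothelium. Of the 10 correlated genes only Ramp2 was on the endothelial lists checked, and which lung cells gave the signal of the others was not tested. The median correlation with the member mean was 0.73 over 20 other pan-endothelial genes and 0.10 over all tested genes. These correlations rest on libraries that share depth and composition with every gene measured in them.

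The wider vessel lists, chosen with earlier results of these data known, were read beside the members. Of all genes tested, 0.577% rose and 51.2% fell in OVA as deposited, and 6.32% and 8.39% after scaling. In OVA_Rg3 the shares were 0.774% and 15.8% as deposited, and 2.98% and 4.75% after scaling. Counts in all lists below are to be read against these shares. Of 20 other pan-endothelial genes, 0 rose and 3 fell in OVA as deposited, and 4 rose and 0 fell after scaling. In OVA_Rg3 these counts were 0 and 1 as deposited, and 4 and 0 after scaling. The median difference of that list was -0.10 in OVA and 0.61 in OVA_Rg3 as deposited, and 0.75 and 1.03 after scaling, close to the members. Palmd, the gene of smallest p on deposited values, fell by 0.89 ± 0.23 in OVA (limma adjusted p = 0.00535) but differed by -0.02 ± 0.20 after scaling.

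Transcription factors of endothelium and alveolar stroma made up a list of 20. As deposited 1 rose and 1 fell in OVA, and 2 rose and 0 fell in OVA_Rg3. After scaling 12 rose in OVA and 9 in OVA_Rg3, with 0 lower. Erg, an ETS factor that maintains endothelial identity, was called on both scales. Its mean was 10.7 ± 3.73 FPKM in control, 18.2 ± 4.50 in OVA and 24 ± 4.64 in OVA_Rg3 (SD, n = 5). Erg rose by 0.75 ± 0.27 in OVA and 1.15 ± 0.27 in OVA_Rg3 as deposited (SE, limma adjusted p = 0.0311 and 0.00979), and by 1.65 and 1.59 after scaling. Leaving out control 2 or 3, or OVA 2 or 4, ended the deposited OVA call of Erg, with a limma adjusted p up to 0.0745, and the OVA_Rg3 call held in all 10 left-out libraries. Sox7, a SOX factor of vessel formation, rose by 1.37 ± 0.31 in OVA_Rg3 as deposited (limma adjusted p = 0.00732) and by 1.74 after scaling. Its OVA_Rg3 values, 8.23 to 14.4 FPKM, lay above all controls, 1.91 to 6.85.

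Genes of the BMP9 and ALK1 pathway, which keeps endothelium quiescent, had 9 tested members. In OVA 0 were called as deposited and 6 rose after scaling, and in OVA_Rg3 2 rose as deposited and 6 after scaling, with 0 lower in each. Tmem100, a membrane protein induced by ALK1, rose by 1.19 ± 0.37 in OVA_Rg3 as deposited (SE, limma adjusted p = 0.0361), from 59.7 ± 19.9 to 139 ± 55.1 FPKM (SD, n = 5). Acvrl1, which encodes ALK1, rose there by 1.41 ± 0.45 (SE, limma adjusted p = 0.042), with OVA_Rg3 values of 11.2 to 84.4 against 7.04 to 18.4 FPKM in controls. The deposited Tmem100 call held only without control 5 or OVA_Rg3 1 among 10 left-out libraries. That of Acvrl1 was lost without control 1, 4 or 5 or OVA_Rg3 2, 3 or 5 (highest limma adjusted p = 0.0791 and 0.0985).

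Partners of the member receptors were read next. Of 12 VEGF ligands, receptors and partners, a list that holds Kdr, 4 fell in OVA as deposited, Kdr among them. On that scale 51.2% of all genes tested fell in OVA. After scaling 0 of the list were called in OVA, and 0 were called in OVA_Rg3 on either scale. Shb, an adaptor protein of VEGFR2 signalling, had the smallest p in OVA. Shb fell by 1.23 ± 0.28 as deposited (SE, limma adjusted p = 0.00253) and differed by -0.47 ± 0.19 after scaling. Vegfa, the ligand of VEGFR2, fell by 1.6 ± 0.57 in OVA as deposited (SE, limma adjusted p = 0.0288) and differed by -0.67 ± 0.42 after scaling (limma adjusted p = 0.318). The deposited Vegfa call was lost when control 1, 4 or 5, or OVA 3, 4 or 5, was left out (limma adjusted p up to 0.0911). Flt1, the decoy receptor VEGFR1, differed by -0.20 ± 0.47 as deposited and 0.57 ± 0.35 after scaling in OVA, neither called (limma adjusted p = 0.72 and 0.313). Of 7 tested angiopoietin and Tie genes, a list that holds Tek and Tie1, 0 were called as deposited and 1 rose after scaling in each comparison. In OVA_Rg3 that gene was Tek itself, and in OVA it was neither Tek nor Tie1. The ligand Angpt1 stood at 5.47 ± 1.91 FPKM in control, 4.71 ± 2.95 in OVA and 6.57 ± 4.43 in OVA_Rg3 (SD, n = 5). Vegfa, Flt1 and Angpt1 were picked for their roles after the values were seen.

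Of 18 junction genes, a list with Cdh5, Pecam1 and Cldn5, 7 fell and 0 rose in OVA as deposited, and 2 fell after scaling. Over all genes tested 51.2% fell in OVA as deposited and 8.39% after scaling. In OVA_Rg3 2 fell and 0 rose as deposited, and 2 rose and 1 fell after scaling. The 2 that rose were the members Cdh5 and Pecam1, so they add nothing to the member calls above. Jam3 and Nectin2, junction molecules that epithelium and smooth muscle also express, fell in OVA on both scales. Jam3 fell by 2.00 ± 0.33 as deposited and by 1.44 ± 0.32 after scaling (SE, limma adjusted p = 0.000302 and 0.00888). Nectin2 fell by 1.86 ± 0.39 and by 1.00 ± 0.27 in OVA (SE, limma adjusted p = 0.00155 and 0.0243). Smooth muscle contractile genes also fell, 10 of 10 in OVA as deposited and 7 after scaling. Among them Acta2, smooth muscle actin, fell by 3.20 ± 0.26 as deposited and by 2.24 ± 0.22 after scaling (SE, limma adjusted p = 2.3e-06 and 0.000108). Airway ciliated markers fell in 8 of 8 and 5 of 8. The part of those cells in the junction values was not tested.

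Marker lists of vessel segments were examined from capillaries to large vessels. Of 13 aerocyte genes, a list that holds Car4 and Prx, 1 rose and 3 fell in OVA as deposited, and 3 rose and 1 fell after scaling. The deposited rise was Prx itself, and Prx and Car4 were among the 3 after scaling. In OVA_Rg3 2 rose and 0 fell as deposited, and 4 rose and 0 fell after scaling, with Prx among them on both scales. Rprml rose in OVA_Rg3 from 2.52 ± 1.09 to 11.6 ± 7.53 FPKM (SD, n = 5), by 1.74 ± 0.41 (SE, limma adjusted p = 0.00965). Cyp4b1, which club cells also express, fell by 2.33 ± 0.47 in OVA (SE, limma adjusted p = 0.0012) and by 1.37 after scaling. Of 10 general capillary genes 3 rose and 0 fell after scaling in either comparison. Plvap, the diaphragm protein of fenestrae and caveolae, rose in OVA_Rg3 by 1.42 ± 0.44 as deposited and 1.89 ± 0.33 after scaling (SE, limma adjusted p = 0.0369 and 0.00733), and the deposited call was lost without control 2, 3 or 4 or OVA_Rg3 2, 3 or 4 (limma adjusted p up to 0.0902). As deposited, 1 general capillary gene fell in OVA and 1 rose in OVA_Rg3.

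Arterial genes, 11 tested, had 4 that fell and 0 that rose in OVA as deposited, and 2 that rose and 1 that fell after scaling. Over all genes tested 51.2% fell in OVA as deposited, and 6.32% rose and 8.39% fell after scaling. Bmx, a kinase of arterial endothelium, fell by 2.36 ± 0.31 in OVA as deposited and by 1.55 ± 0.36 after scaling (SE, limma adjusted p = 8.2e-05 and 0.0108), from 10.4 to 17.4 FPKM in controls to 1.27 to 4.42 in OVA. Venous genes, 10 tested, and lymphatic genes, 7 tested, had 3 and 4 that fell in OVA as deposited and 0 called after scaling. The venous factor Nr2f2 fell by 0.95 ± 0.29 and the semaphorin Sema3d, of the lymphatic list, by 1.13 ± 0.30 as deposited (SE, limma adjusted p = 0.0149 and 0.00637). Of 10 Notch genes 6 fell in OVA as deposited, and after scaling 1 rose and 1 fell. Jag1, a Notch ligand of endothelium, smooth muscle and airway, fell by 2.03 ± 0.39 in OVA and by 1.56 ± 0.39 in OVA_Rg3 as deposited (SE, limma adjusted p = 0.000956 and 0.0131), and by 1.21 and 1.11 after scaling (limma adjusted p = 0.0226 and 0.0498).

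**Figure D4:**
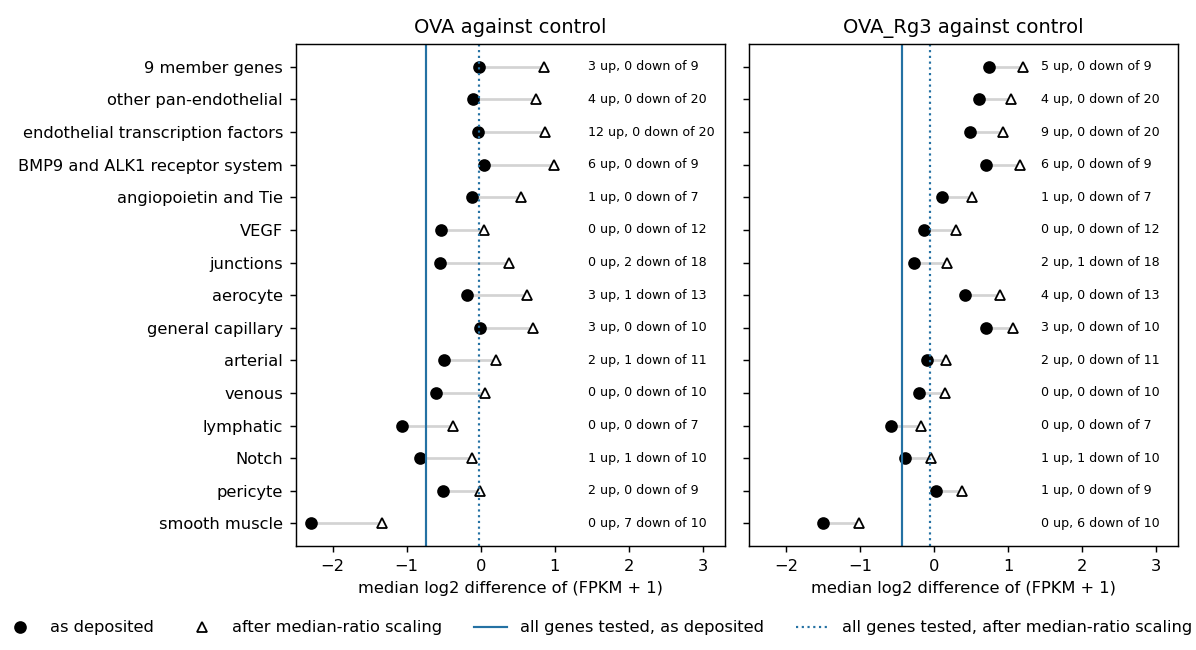
Median log2 difference of (FPKM + 1) against control for the 9 members and 14 lists of vessel pathways, vessel segments and mural cells, as filled circles for deposited values and open triangles after median-ratio scaling, with blue lines at the medians of all genes tested (solid as deposited, dotted after scaling). The text at right counts genes called after scaling. In OVA all but the lymphatic, Notch and smooth muscle lists lie to the right of all genes on both scales. In OVA_Rg3 all but the lymphatic and smooth muscle lists do. The members, other pan-endothelial genes, transcription factors, BMP9 and ALK1, angiopoietin and Tie, and capillary lists have medians between -0.19 and 0.05 in OVA as deposited. Smooth muscle lies lowest of the lists plotted.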

How the data were processed

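The deposited table holds 14766 protein-coding genes in 15 libraries of mouse lung, 5 per group. The file header names no unit. The deposited values were read as FPKM, made by the authors, from the values themselves, and TPM over a larger gene set could not be told apart with certainty. Trimmomatic, featureCounts and GRCm39 (mm39) are named in the submitters' processing notes, without versions. Positions in the table were those of GRCm38 for 13545 genes (GENCODE M21), so that build is given. Per the labels' protocols, Trizol RNA, oligo(dT) beads and the TruSeq RNA kit were used, and whether counting used strand is not given in the sources used here.

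Deposited values were analysed as log2(FPKM + 1). The 12137 genes that reached a value of 1 in 5 or more libraries entered limma 3.58.1 in R 4.3.3, with 1 mean per group over all 15 libraries, a mean-variance trend and robust estimation. Calls were made at a Benjamini-Hochberg adjusted p under 0.05 over all genes tested. Fold changes on this scale understate those of low genes. The second scale divided each library by its median-ratio size factor. Exact two-sided permutation tests compared member ratios, adjusted over 24 planned tests, over 27 tests with the mean of the other 8 members as denominator, or over 108 tests of all pairs, chosen after seeing the data. Approximate reads came from the step that 1 read makes in low values. Between 26.3% and 43.1% of low values were whole multiples of that step within 2%, where chance gives 4%, so read numbers are approximate and cover counting error only.

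The members and lists were chosen with earlier results of these data known. The rule for named genes took all 9 members, the 10 genes most correlated with their mean and, for each list and comparison, up to 3 genes of smallest p called on both scales in the same direction, and it let the gene of smallest p be given where none was. Not every gene it allows is named, and Vegfa, Flt1, Angpt1, Pmp22 and Egr2 fall outside it for the comparison shown. Replicates are biological per the labels. Sequences come from RefSeq tables on GRCm38.p6. Python 3.11.15, numpy 2.4.6, pandas 2.3.3, scipy 1.17.1 and matplotlib 3.10.9 were used. Alternatives were quantile normalization, other filters and pseudocounts, array weights, a replicate block, libraries left out and other scalings, and the scripts were tested on simulated data.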

Additional observations from a re-analysis of the deposited data

Results flagged for a closer look

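Of 27 combinations of member and group checked on deposited values, 4 held a library far from the other 4, where chance flags about 1 in 20 groups. The combinations share libraries and the members correlate, so the flags are not independent and their number cannot be weighed against that rate. OVA_Rg3 2 stood apart from the other OVA_Rg3 libraries for Cdh5 at 106 FPKM, Tek at 49.3 FPKM and Pecam1 at 81.0 FPKM. It also had the lowest mitochondrial share of its group, 41.6%, and the part of that share in these values was not tested. Control 1 stood apart from the other controls for Egfl7 at 44.7 FPKM. After median-ratio scaling 2 combinations held such a library, Tek in OVA_Rg3 2 at 37.3 FPKM and Prx in OVA_Rg3 1 at 11.6 FPKM.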

How the results depend on the processing

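Over all genes, OVA against control gave 6286 calls as deposited. Other counts were 1785 after median-ratio scaling, 2006 after quantile normalization, 2147 when scaled without mitochondrial genes and Scgb1a1, 3836 with a value of at least 5 in 5 libraries and 10020 with array weights. OVA_Rg3 against control gave 2016 calls as deposited, and in the same order 939, 1187, 1153, 1197 and 7369, with 959 at a pseudocount of 0.1. OVA_Rg3 against OVA gave 0 calls, but 2 with the stricter filter, 1 at a pseudocount of 0.1, 6979 with array weights, and 2 without control 2, OVA 4 and OVA_Rg3 1 on either scale. With scaling, leaving out those 3 libraries gave 2476 calls in OVA and 1011 in OVA_Rg3 against control. Array weights, which let 1 library count for more than another, gave 5 members called in OVA against control, 9 in OVA_Rg3 against OVA and 6 in OVA_Rg3 against control. Of the 5, Prx rose and Kdr, Tek, Pecam1 and Tie1 fell (-1.16, -0.85, -0.84 and -0.90), the last 3 opposite in sign to their scaled differences, and all other calls were higher. The weights also turned Car4 to -0.49, Cldn5 to -0.62 and Egfl7 to -0.34 in OVA. The cause was not tested.

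Members called were 2 in OVA and 1 in OVA_Rg3 against control as deposited. With scaling that left out mitochondrial genes and Scgb1a1 the Egfl7 call in OVA and the Tek and Pecam1 calls in OVA_Rg3 were lost (limma adjusted p = 0.0775, 0.0733 and 0.0711). Members called were 1 and 3 when scaled without mitochondrial genes and Scgb1a1, 5 in OVA_Rg3 after median-ratio scaling or quantile normalization, and 4 and 5 with scaling and without control 2, OVA 4 and OVA_Rg3 1. Differences of OVA from control that turned positive were 0.85 for Cdh5, 0.67 for Pecam1, 0.82 for Tek and 0.73 for Tie1 with median-ratio scaling, 0.78, 0.59, 0.81 and 0.73 with quantile normalization, 0.60, 0.43, 0.59 and 0.50 when scaled without mitochondrial genes and Scgb1a1, and 0.75, 0.61, 0.80 and 0.73 with scaling and the 3 libraries left out. Kdr in OVA_Rg3 against control turned to 0.22, 0.24, 0.15 and 0.47 under these 4 settings. In OVA_Rg3 against OVA, scaling turned Car4 to -0.12 and Cldn5 to -0.055 (-0.12 and -0.050 with the 3 libraries left out), and quantile normalization turned Car4 to -0.016. The Kdr to Cdh5 ratio turned to 0.026 there without the 3 libraries. Scaling with the 3 libraries left out turned Palmd to 0.058 and Nr2f2 to 0.12 in OVA against control. Quantile normalization turned mt-Co1 to -0.051 in OVA against control.

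Same-numbered libraries of different groups correlated at -0.38 to 0.32, and 5 of 15 pairs exceeded 0.1. Differently numbered libraries were not set beside them, so these values cannot decide whether replicate numbers pair the libraries. With the replicate block the members called were 2 and 1 as deposited, the same as without it, and with scaling 2 rather than 3 members were called in OVA, where Car4 had limma adjusted p = 0.056, and 3 rather than 5 in OVA_Rg3 against control, where Tek and Pecam1 had limma adjusted p = 0.0657 and 0.0545. As deposited the block gave 5816 calls over all genes in OVA against control. The block with scaling gave 1783 and 1058 calls over all genes, and left Cdh5, Pecam1, Tek and Tie1 at 0.85, 0.67, 0.82 and 0.73 in OVA, Kdr at 0.22 in OVA_Rg3, and Car4 and Cldn5 at -0.12 and -0.055 in OVA_Rg3 against OVA.

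With each library left out in turn, members called ranged from 1 to 2 in OVA against control and from 0 to 1 in OVA_Rg3 against control as deposited, and from 1 to 3 and 1 to 6 after scaling. As deposited, calls over all genes ranged from 4412 to 7447 in OVA against control, 1063 to 2574 in OVA_Rg3 against control and 0 to 3 in OVA_Rg3 against OVA. After scaling they ranged from 1019 to 1730 in OVA, 164 to 1177 in OVA_Rg3 against control and 0 to 1 in OVA_Rg3 against OVA. Deposited differences of OVA from control ranged from -0.33 to 0.16 for Cdh5, -0.28 to 0.51 for Cldn5, -0.088 to 0.49 for Egfl7, -0.37 to 0.24 for Tek and -0.49 to 0.12 for Tie1, and Kdr in OVA_Rg3 from -0.47 to 0.051. Scaled differences ranged from -0.13 to 0.022 for Kdr in OVA against control, and in OVA_Rg3 against OVA from -0.37 to 0.14 for Car4, -0.25 to 0.27 for Cldn5, -0.063 to 0.44 for Egfl7 and -0.23 to 0.22 for Prx. Control 2 and OVA_Rg3 1 were the shallowest libraries, and low values there are coarse.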
